A study of Mus musculus with 14 samples.

Results

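The core circadian clock genes examined here are 8 named transcripts, the activators Arntl (also written Bmal1), Clock and Npas2 and the repressors Per1, Per2, Per3, Cry1 and Cry2. They were taken by name from 24411 genes counted in mouse liver, and 6 of the 8 had enough reads to be tested among 9644 genes. Arntl and Npas2 were not tested because of low counts. The livers came from male littermates of 5 to 7 months in 2 genotypes, each given vehicle or tunicamycin. The drug blocks N-linked glycosylation and so puts stress on the endoplasmic reticulum. All mice carried floxed Rbbp5 alleles. WT mice were Rbbp5 (flox/flox) without the Cre transgene, Alb-CRE (-/-). LKO mice (RRBP5 LKO in the sample labels) were Rbbp5 (flox/flox) with Alb-CRE (+/-), whose albumin promoter drives Cre in hepatocytes. Whether other liver cells kept the gene was not tested. RBBP5 is a core component of the KMT2 family complexes, which place methyl groups on lysine 4 of histone H3. Treated mice received 0.05 mg/kg tunicamycin in 500 µl of PBS with 3% DMSO by intraperitoneal injection, and control mice the same fluid without it. Mice were injected from 9 to 10 in the morning. Tissue was collected 8 h afterwards, so each gene was read at a single time of day. A change of level and a shift of phase cannot be told apart at a single time.

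The clock is a transcriptional feedback loop. CLOCK, or its paralogue NPAS2, pairs with BMAL1 and binds E-box sequences in the Per and Cry genes, and the PER and CRY proteins return to the nucleus and repress that pair. In liver the loop sets daily rhythms of metabolic genes, directly and through nuclear receptors and PAR bZIP factors that bind RORE and D-box sequences.

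The promoters of 4 genes are shown because they hold the letters of these elements. RefSeq windows of 250 bases before each annotated start (GRCm38.p6) were found for 7 of the 8 genes, 11 windows in all. Both strands were searched for the E-box CACGTG, the E'-box CACGTT, the D-boxes TTATGTAA and TTACGTAA, and the RORE TAGGTCA, none of which overlap in the sequences below. Capitals mark matches, and an E'-box on the opposite strand reads AACGTG.
Per1: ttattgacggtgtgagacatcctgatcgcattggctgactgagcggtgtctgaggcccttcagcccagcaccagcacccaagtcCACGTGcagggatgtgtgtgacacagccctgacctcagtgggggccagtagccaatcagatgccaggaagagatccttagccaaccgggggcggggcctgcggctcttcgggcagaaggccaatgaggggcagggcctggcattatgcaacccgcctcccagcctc
Cry1: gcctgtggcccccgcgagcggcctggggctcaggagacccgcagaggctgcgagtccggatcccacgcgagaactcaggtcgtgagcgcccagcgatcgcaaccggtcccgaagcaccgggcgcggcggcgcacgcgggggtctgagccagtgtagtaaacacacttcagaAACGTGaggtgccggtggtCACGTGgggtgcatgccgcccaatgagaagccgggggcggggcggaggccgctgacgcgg
Cry2: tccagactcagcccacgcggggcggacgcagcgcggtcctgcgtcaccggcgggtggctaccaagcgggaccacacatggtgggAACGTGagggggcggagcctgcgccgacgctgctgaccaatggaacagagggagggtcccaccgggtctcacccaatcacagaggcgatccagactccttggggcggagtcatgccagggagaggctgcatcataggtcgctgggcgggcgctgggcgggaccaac
Per3: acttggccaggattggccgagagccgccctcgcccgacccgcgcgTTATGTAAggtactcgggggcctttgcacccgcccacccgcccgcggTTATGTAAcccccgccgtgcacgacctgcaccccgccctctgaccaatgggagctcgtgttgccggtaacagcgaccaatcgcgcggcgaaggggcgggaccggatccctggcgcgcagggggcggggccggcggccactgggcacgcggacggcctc
The Per1 window (chr11:69098699-69098948, plus strand, the first of its 2 starts) holds an E-box 166 bases before the start. The Cry1 window (chr10:85185055-85185304, minus strand) holds an E'-box 79 bases and an E-box 60 bases before the start, and the Cry2 window (chr2:92434070-92434319, minus strand) an E'-box at 166 bases. The Per3 window (chr4:151044666-151044915, minus strand) holds 2 D-boxes, at 205 and 158 bases. No listed motif lay in the windows of Clock, Arntl or Npas2, and no RORE in any window of the 7 genes. Among 32851 windows of the same length, 6.02% hold the E-box, 3.85% the E'-box, 0.931% a D-box and 2.23% the RORE, so a match is a description of these letters and not a site in use.

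The genes lie, in the coordinates of the deposited mm10 table, on chromosomes 7 (Arntl, 113207465 to 113314126), 5 (Clock, 76209868 to 76304792), 10 (Cry1, 85131700 to 85185054), 2 (Cry2, 92403647 to 92434069), 11 (Per1, 69098956 to 69109957) and 4 (Per3, 151003655 to 151044665). Npas2 (39194272 to 39363240) and Per2 (91415982 to 91459328) are both on chromosome 1.

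Sense-strand reads numbered from 6507018 to 13519421 per library in 14 libraries, of which from 72.5 to 75.5% came from Rn45s, the ribosomal RNA precursor gene, leaving from 1704479 to 3551398 reads for all other genes. Libraries 3 and 4 of the LKO vehicle group were nearly indistinguishable (chi-square of 1.12 per degree of freedom, against 3.38 to 25.9 in the other 17 pairs of one group) and were summed as 1 sample, called 3+4. This left 3 samples in every group but LKO tunicamycin, which had 4. Nothing in the labels says that numbered samples are separate animals, so p-values measure the spread between these samples. Rbbp5 was lower in LKO than in WT when averaged over treatments (log2 fold change -0.89, adjusted p = 0.018), but the library labelled LKO vehicle 1, at 4.15 CPM (counts scaled to a common library size), fell within the WT range of 4.07 to 6.41 CPM. WT tunicamycin 3 resembled the WT vehicle group genome-wide. Its r across genes, after centring, was 0.32 with that group's mean and -0.17 with the rest of its own group. LKO vehicle 3+4 was also nearer to the WT vehicle mean (r = 0.23) than to the rest of its own group (-0.07). LKO vehicle 2 was nearer to LKO tunicamycin (0.16 against -0.05), as was WT tunicamycin 2 (0.15 against 0.02). LKO vehicle 1 and WT tunicamycin 3 are called the doubted samples below. Some of the clock gene results that rest on them, but not all, are also given without either or both.

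All CPM values use TMM library sizes, in which the Rn45s reads (72.5 to 75.5% of sense-strand reads) are counted. Each CPM value, limit and interval is therefore lower than it would be on the reads of all other genes alone. Levels of different genes are compared only in the deposited FPKM, which divide by transcript length. Averaged over all samples on that scale, Clock was the highest of the 8 (mean FPKM 0.925 ± 0.218, SD, n = 13), followed by Cry2 (0.713), Per1 (0.638), Per2 (0.630), Per3 (0.538) and Cry1 (0.363). Arntl (0.0815) and Npas2 (0.00255) came last. This order belongs to the single time of day sampled. Clock had the highest mean in 3 of the 4 groups. In WT vehicle its mean FPKM of 0.759 lay below those of Per2 (0.860) and Cry2 (0.857), with overlapping samples. The order between neighbours was not firm in the upper part. Clock exceeded Cry2 in 9 of 13 samples, Cry2 exceeded Per1 in 10, Per1 exceeded Per2 in 5, Per2 exceeded Per3 in 7 and Per3 exceeded Cry1 in 8. Cry1 exceeded Arntl in 12 of 13 samples, and Arntl exceeded Npas2 in 12.

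**Figure D1:**
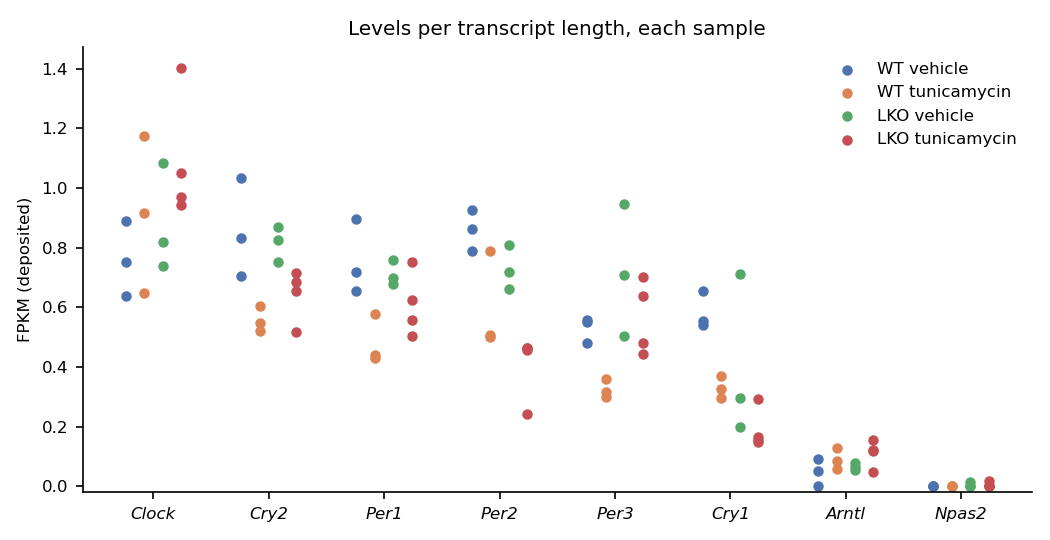
Deposited FPKM (vertical axis) of the 8 clock genes in 13 liver samples, 1 point per sample, coloured by genotype and treatment. Clock lies highest at 0.925 FPKM on average over all samples but below Per2 and Cry2 in WT vehicle, the Per and Cry genes overlap one another, and Arntl and Npas2 lie near 0.

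After tunicamycin 3 repressor transcripts fell when both genotypes were averaged. Per2 fell by 33.6%, Cry1 fell by 44.3% and Per1 fell by 25.5%. Clock was the only activator transcript with enough reads to be tested, and it did not pass. Of the 6 genes tested, 3 were called lower at an adjusted p under 0.05 (edgeR's quasi-likelihood test, Benjamini-Hochberg over 9644 genes), where 2.15% of all genes were called lower and 4.32% were called in either direction. Among the 6, 5 had a lower estimate (48.5% of all genes did), and their median log2 fold change was -0.37 against 0.01 over all genes. In bulk liver fewer cells of a type and less RNA per cell cannot be told apart.

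Per2, a repressor whose protein carries CRY into the nuclear complex, read 13.7, 13.2 and 12.1 CPM in WT vehicle and 11.01, 8.59 and 9.11 CPM in WT tunicamycin. In LKO it read 11.7, 9.93 and 10.2 CPM with vehicle (samples 1, 2 and 3+4) and 7.99, 7.03, 4.08 and 6.41 CPM after tunicamycin. Every tunicamycin sample lay below every vehicle sample of its own genotype, a pattern that 1.64% of all genes share in the lower direction and that Per2 alone of the 6 shows. The log2 fold change averaged over genotypes was -0.59 (SE 0.13, edgeR adjusted p = 0.0195, 95% interval of the ratio 0.552 to 0.799). Without WT tunicamycin 3 and LKO vehicle 1 it was -0.54 (edgeR adjusted p = 0.0237). Leaving out WT vehicle 1 ended the call (edgeR adjusted p = 0.0518), and the other 12 single omissions kept it.

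Cry1, the repressor with an E-box and an E'-box in its printed promoter, read 4.55, 3.97 and 4.23 CPM in WT vehicle and 2.61, 2.59 and 2.47 CPM in WT tunicamycin. Its LKO values were 1.90, 1.83 and 4.51 CPM with vehicle (4.51 in sample 3+4) and 1.47, 1.95, 1.02 and 1.52 CPM after tunicamycin. The WT groups did not overlap, while in LKO the vehicle samples 1 and 2 lay among the tunicamycin samples and sample 3+4 lay at the WT vehicle level. The averaged log2 fold change was -0.85 (SE 0.23, edgeR adjusted p = 0.0461, 95% interval of the ratio 0.398 to 0.779). Without LKO vehicle 3+4 it shrank to -0.53 (edgeR adjusted p = 0.131). The call held in 11 of 25 alternatives, and the direction held in all 25. Among the 13 single omissions the edgeR adjusted p ranged from 0.0166 to 0.131, and it stayed under 0.05 without WT tunicamycin 3, LKO vehicle 1 or LKO vehicle 2 only. Cry1 was the least deeply read of the 6, at 10 to 76 reads per sample.

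Per1, the repressor whose first promoter holds an E-box, read 11.02, 8.71 and 10.5 CPM in WT vehicle and 7.16, 5.51 and 6.33 CPM in WT tunicamycin. In LKO it read 9.72, 8.32 and 8.48 CPM with vehicle and 8.79, 7.94, 6.93 and 7.38 CPM after tunicamycin. The WT groups stood apart and the LKO groups overlapped. The averaged log2 fold change was -0.42 (SE 0.10, adjusted p = 0.0303 by edgeR, 95% interval of the ratio 0.640 to 0.868), and it was called in 17 of 26 alternatives, 5 of them among the 13 single omissions. Under those omissions the edgeR adjusted p ranged from 0.0242 to 0.0844. It was above 0.05 without WT vehicle 1 or 3, WT tunicamycin 1 or 2, LKO vehicle 1 or 3+4, or LKO tunicamycin 2 or 3.

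Cry2, Per3 and Clock did not pass the adjusted threshold, though the unadjusted p was under 0.05 in all 6 genes (20.2% of all genes had such a p). Cry2, a second cryptochrome repressor, was at -0.32 on the averaged log2 scale (SE 0.12, edgeR adjusted p = 0.150, ratio interval 0.668 to 0.961), and passed under total count scaling alone of the alternatives (-0.44, adjusted p = 0.0471). Per3, a period gene with 2 D-boxes in its printed window, was at -0.32 (SE 0.14, edgeR adjusted p = 0.209, ratio interval 0.649 to 0.984). Clock, the only activator with enough reads, was at 0.34 (SE 0.12, edgeR adjusted p = 0.119, ratio interval 1.06 to 1.52). Without WT tunicamycin 3 the Clock value was 0.43 and passed (edgeR adjusted p = 0.0205), as it did without both doubted samples (0.38, adjusted p = 0.0419).

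The values behind these 3 genes showed more overlap. Clock read from 16.8 to 20.7 CPM in WT vehicle and 27.7, 26.4 and 17.9 CPM in WT tunicamycin, so that only WT tunicamycin 3 fell into the vehicle range. In LKO it read 17.2, 23.8 and 19.6 CPM with vehicle and 24.9, 24.6, 32.0 and 21.6 CPM after tunicamycin, with 1 treated sample below the highest vehicle sample. Cry2 read 9.22, 7.56 and 6.27 CPM in WT vehicle against 6.19, 5.51 and 6.48 CPM in WT tunicamycin. Its LKO samples read 7.58, 6.86 and 8.42 CPM with vehicle and 7.46, 7.03, 5.50 and 5.21 CPM after tunicamycin, so both pairs of groups overlapped. Per3 read 8.62, 7.82 and 10.6 CPM in WT vehicle and 6.33, 7.30 and 6.64 CPM in WT tunicamycin, which did not overlap. Its LKO samples were spread from 7.77 to 13.4 CPM with vehicle and from 7.03 to 10.8 CPM after tunicamycin, which did.

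**Figure D2:**
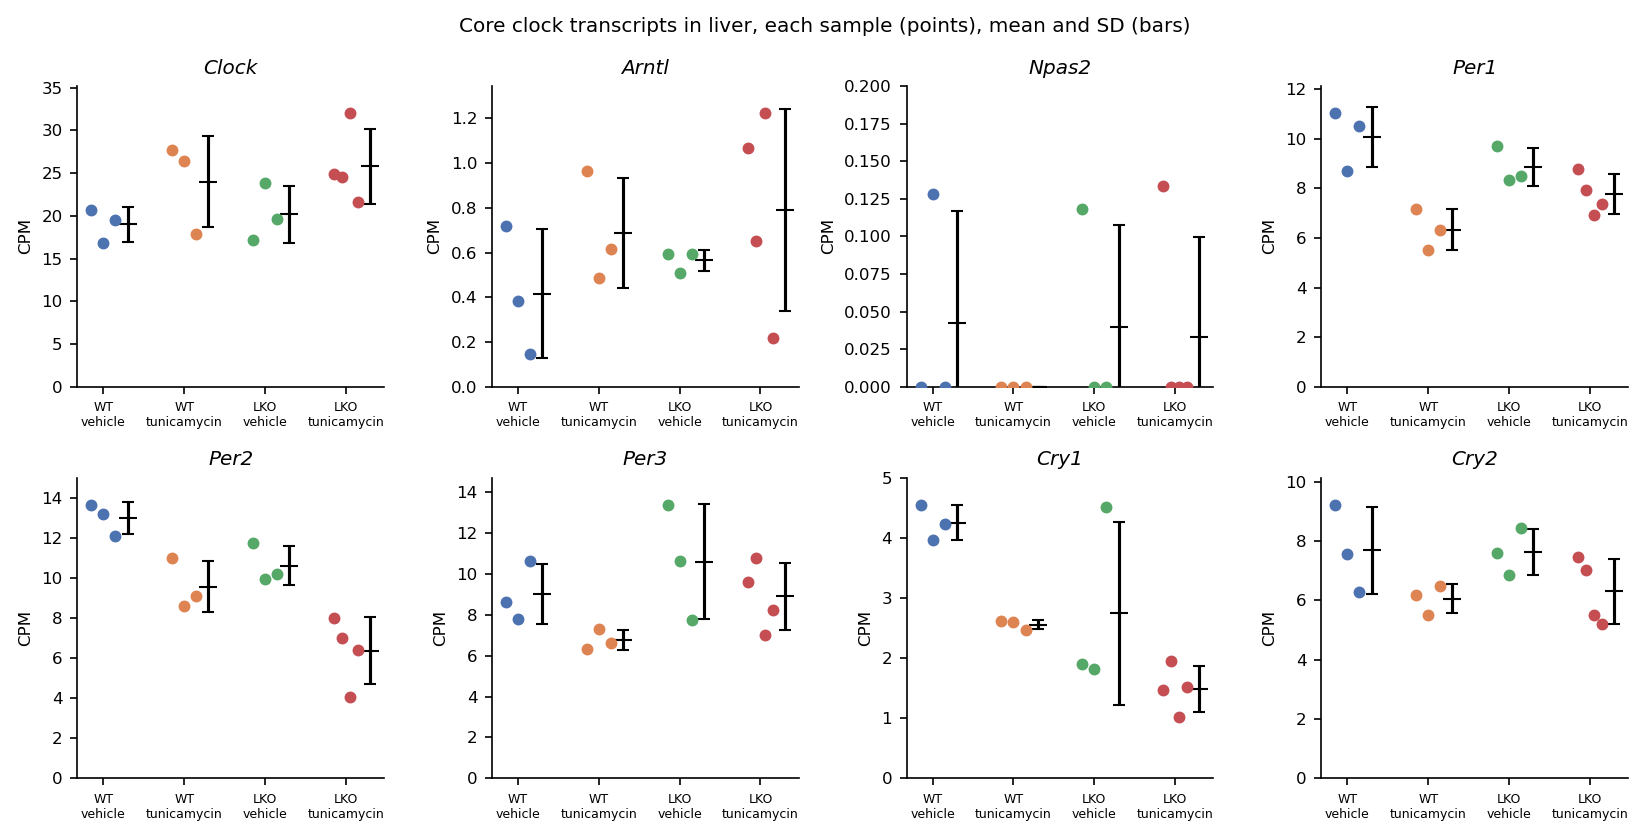
CPM (vertical axes, each from 0) of the 8 clock genes in each of 13 samples by genotype and treatment, with points for samples and bars for mean and SD. Per2 steps down with tunicamycin in both genotypes, and the LKO vehicle sample at 4.51 CPM of Cry1 stands level with the WT vehicle samples.

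Within each genotype no clock gene passed the adjusted threshold. In WT, 0 of the 6 genes were called, where 0.363% of all genes were, and 3 had an unadjusted p under 0.05 in the lower direction (Per1, Per2 and Cry1), against 6.85% of all genes. Groups did not overlap in the lower direction for 4 of the 6 (Per1, Per2, Per3 and Cry1), against 8.65% of all genes. Per1 was at -0.66 on the log2 scale (SE 0.16, adjusted p = 0.0755 by edgeR), and without WT tunicamycin 3 it was called at the same size (-0.66, adjusted p = 0.0414). Per2 was at -0.44 and Cry1 at -0.73, with edgeR adjusted p of 0.278 and 0.318.

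In LKO, 0 of the 6 were called, where 0.0311% of all genes were. An unadjusted p under 0.05 was reached by Per2 and Cry1 in the lower direction (6.33% of all genes) and by Clock in the higher one (5.83%). The treated group lay wholly below the vehicle group for Per2 alone, against 6.55% of all genes. Per2 was at -0.74 (SE 0.17, edgeR adjusted p = 0.175), Cry1 at -0.96 (SE 0.32, adjusted p = 0.268) and Per1 at -0.18 (SE 0.13, adjusted p = 0.640). Without LKO vehicle 1 the Per2 value was -0.68 (edgeR adjusted p = 0.317), and without LKO vehicle 3+4 the Cry1 value was -0.34 (edgeR adjusted p = 0.791).

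The difference between the genotypes' tunicamycin effects was tested as an interaction, and none of the 6 genes passed (0% of all genes did). Per1 had the only unadjusted p under 0.05 (4.91% of all genes had one). Its effect was weaker in LKO by 0.48 on the log2 scale (SE 0.21, 95% interval 0.04 to 0.92, edgeR adjusted p = 0.948), and by 0.56 without LKO vehicle 1 (unadjusted p = 0.0215, adjusted p = 0.988). Per2 differed the other way (-0.31, 95% interval -0.84 to 0.23), and Cry1 at -0.23 had an interval from -1.20 to 0.74. Without LKO vehicle 1 these values were -0.22 for Per2 and -0.38 for Cry1. These intervals are wide, and the data do not show that the genotypes responded alike. Per1, Per2 and Cry1 thus fell on average over the genotypes, and whether the size of the fall depended on Rbbp5 deletion was not resolved.

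LKO and WT livers were compared within each treatment and averaged over both, and no clock gene passed the adjusted threshold in any of the 3 comparisons. The background for those calls was 0.0415% of genes with vehicle, 0.861% after tunicamycin and 2.21% averaged. An unadjusted p under 0.05 was reached by 0 of the 6 with vehicle (8.15% of all genes), by Per2 and Cry1 in the lower direction after tunicamycin (8.24%), and by Per2, Cry1 and Per3 on average (18%). Per2 lay lower in every LKO sample than in every WT sample of the same treatment. Of all genes, 1.15% showed that pattern in both treatments. Its log2 fold change was -0.30 with vehicle (SE 0.17, edgeR adjusted p = 0.683) and -0.61 after tunicamycin (SE 0.19, adjusted p = 0.126). Averaged over treatments it was -0.45 (SE 0.13, unadjusted p = 0.00239, edgeR adjusted p = 0.0747, ratio interval 0.606 to 0.879). Without LKO vehicle 1 the Per2 difference was -0.38 with vehicle and -0.49 averaged (edgeR adjusted p = 0.751 and 0.0879). Under the 13 single omissions the averaged edgeR adjusted p ranged from 0.0459 to 0.158, and 1 omission gave a call. After tunicamycin those omissions gave -0.73 to -0.43 (edgeR adjusted p from 0.0968 to 0.331).

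Cry1 split the LKO vehicle group. Samples 1 and 2 lay below all WT samples and sample 3+4 lay above 2 of the 3 WT vehicle samples. The averaged genotype difference was -0.68 (SE 0.23, edgeR adjusted p = 0.130), and without sample 3+4 it was -0.99 and passed (adjusted p = 0.00722). Without LKO vehicle 1 the averaged Cry1 difference was -0.60 (adjusted p = 0.207). After tunicamycin alone the groups did not overlap (log2 fold change -0.80, SE 0.36, edgeR adjusted p = 0.295), a pattern that Per2 shared and that 6.58% of all genes showed in the lower direction. Nfil3, Fkbp5 and Zbtb16 were looked up after the Cry1 values were seen. Their CPM in LKO vehicle samples 1, 2 and 3+4 were 1.54, 1.75 and 5.28 for Nfil3, a D-box repressor. They were 14.3, 11.4 and 39.4 for Fkbp5 and 9.36, 6.21 and 27.1 for Zbtb16. Fkbp5 and Zbtb16 were picked from a list of 14 genes that respond to glucocorticoids or cAMP. The sample values of the rest of that list are not given here, so these values do not describe it. Sample 3+4 was highest of the group for all 3 genes looked up, at or above the lowest WT vehicle sample. Zbtb16 was among the genes most correlated with Cry1 across these same samples (r = 0.93), so its likeness to Cry1 is not independent evidence. Genome-wide, sample 3+4 was at r = 0.23 with the WT vehicle mean and -0.07 with the rest of its own group. What sets that sample apart was not tested.

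The other repressors and Clock showed no called genotype difference. Per3 was higher on average in LKO (0.30, SE 0.14, edgeR adjusted p = 0.276, ratio interval 1.001 to 1.52), and its WT and LKO groups overlapped within each treatment. Without LKO vehicle 1 the Per3 value was 0.21 averaged and 0.02 with vehicle (edgeR adjusted p = 0.463 and 0.997). Per1 was at 0.04 (ratio interval 0.883 to 1.20), Cry2 at 0.01 (0.841 to 1.21) and Clock at 0.10 (0.895 to 1.28). These intervals leave room for differences in either direction.

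**Figure D3:**
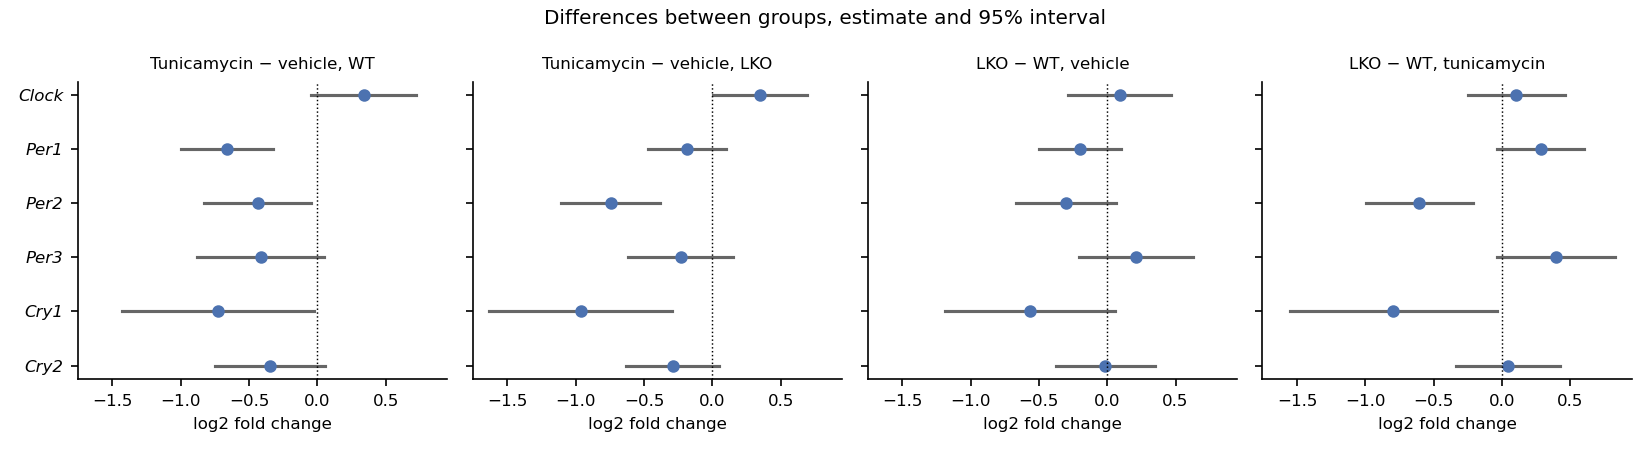
Log2 fold changes (horizontal axes) of the 6 tested clock genes in 4 comparisons, with points for edgeR estimates and lines for 95% intervals. In the tunicamycin comparisons all Per and Cry genes lie left of 0, and Per2 and Cry1 do so in both genotype comparisons, with Per2 at -0.61 and Cry1 at -0.80 after tunicamycin.

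Arntl, the obligate partner of CLOCK, gave 73 reads in all, from 1 to 12 per sample. Pooled by group it was at 0.434 CPM in WT vehicle (10 reads, exact Poisson 95% interval 0.208 to 0.799), 0.703 in WT tunicamycin (14 reads), 0.564 in LKO vehicle (22 reads) and 0.789 in LKO tunicamycin (27 reads, 0.520 to 1.15). These intervals cover counting error only and overlap one another. In a fit with no filter on low counts, the averaged tunicamycin difference of Arntl was 0.56 (SE 0.41, edgeR adjusted p = 0.614), and no contrast had an unadjusted p under 0.05. Npas2, the paralogue that can take CLOCK's place, gave 3 reads in 13 samples, 1 each in WT vehicle 2, LKO vehicle 1 and LKO tunicamycin 1. With 0 reads the WT tunicamycin group allows up to 0.185 CPM (exact Poisson limit), on the scale that counts Rn45s reads. In the same fit with no filter its averaged tunicamycin difference was -0.97 with a 95% interval from -3.39 to 1.45 (SE 1.21, edgeR adjusted p = 0.833), too wide to show a direction at this depth.

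Of the accessory loop and output factors, 4 of 10 also fell after tunicamycin. This list of 10 genes, all of them tested, was chosen with earlier results of these data known and is not independent evidence. When the tunicamycin effect was averaged over genotypes, 9 of the 10 had a lower estimate (48.5% of all genes did) and 4 were called, all lower (2.15% of all genes), with a median log2 fold change of -0.41 against 0.01 over all genes. Ciart, a repressor of the CLOCK and BMAL1 pair, fell by 0.98 on the log2 scale (SE 0.20, edgeR adjusted p = 0.0164). Bhlhe40, a repressor that binds E-boxes, fell by 0.53 (adjusted p = 0.0223). The PAR bZIP activators Hlf and Tef fell by 0.56 and 0.41 (adjusted p = 0.0106 and 0.0160). Nr1d1, which encodes the REV-ERB alpha repressor and was singled out after its value was seen, was at -0.03 on average (SE 0.16, adjusted p = 0.944). That average joined -0.52 in WT and 0.46 in LKO, an interaction of 0.97 that did not pass (unadjusted p = 0.00648, edgeR adjusted p = 0.935, with 4.91% of all genes at an unadjusted p under 0.05). Bhlhe41 had a larger interaction estimate, 1.23 from -1.28 in WT and -0.05 in LKO, which did not pass either (unadjusted p = 0.0138, edgeR adjusted p = 0.935). No gene of this list was called between genotypes. Nfil3 came nearest, at -0.98 averaged over treatments (edgeR adjusted p = 0.0593).

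**Figure D4:**
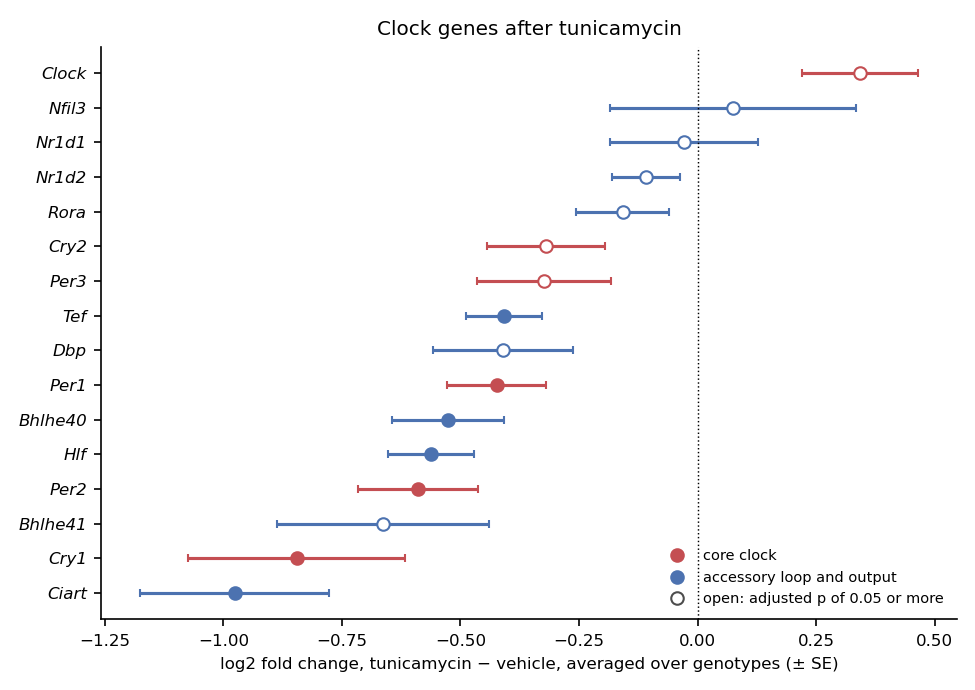
Log2 fold change after tunicamycin averaged over genotypes (horizontal axis, points with SE) for the 6 tested core clock genes (red) and 10 accessory loop and output genes (blue), filled where the adjusted p was under 0.05. Clock and Nfil3 lie right of 0, Nr1d1 lies at -0.03, and the lowest is Ciart at -0.98.

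Of 12 kinases, ligases and partners 11 were tested, and 1 was called after tunicamycin (4.32% of all genes were called in either direction). Usp2, a deubiquitinase with a daily rhythm in liver, fell by 1.04 (SE 0.20, edgeR adjusted p = 0.0160), while Timeless was at 0.88, Csnk1e, a casein kinase that phosphorylates PER, at -0.58 and Prkaa2, an AMP-activated kinase subunit, at -0.36, none of them called. Of 14 chromatin cofactors, all tested, 0 were called by edgeR after tunicamycin and 2 had an unadjusted p under 0.05, a lower share than the 20.2% of all genes. They were the acetyltransferase gene Kat2b at -0.35 and Sfpq at -0.25, which encodes a PER-associated RNA-binding protein, and the methyltransferase gene Ezh2 was at 0.39. Averaged over treatments, Rbbp5 alone was called between genotypes in that list (2.21% of all genes were called). Rbbp5 is the gene deleted in LKO, so its call follows from the design.

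Clock-controlled liver genes had 11 of 12 tested, 10 of them with a lower estimate after tunicamycin (48.5% of all genes) and 3 called lower (2.15% of all genes). Their median log2 fold change was -0.55 against 0.01 over all genes. Upp2, a uridine phosphorylase, fell by 0.84 (SE 0.20, edgeR adjusted p = 0.0287). Nampt, the rate-limiting enzyme of NAD salvage, fell by 0.63 (adjusted p = 0.0160) and Gys2, the liver glycogen synthase, fell by 0.55 (adjusted p = 0.0407). Pdk4 at -1.04 was not called (SE 0.45, adjusted p = 0.203). Of 14 genes that respond to glucocorticoids or cAMP 13 were tested, and the called ones went both ways (4.32% of all genes were called in either direction). Dusp1, a MAP kinase phosphatase, fell by 1.82 (SE 0.20, edgeR adjusted p = 0.000625) and Zbtb16 fell by 1.25 (adjusted p = 0.0170), while the metallothioneins Mt1 and Mt2 rose by 1.98 and 2.11 (adjusted p = 0.0281 and 0.0407).

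Across the 13 samples the transcripts most like each clock gene were found by Pearson correlation of log2 CPM among 5993 genes, as a description of samples that share group and library. Cry1 was most like Dnaja1 (r = 0.94), Zbtb16 (0.93) and Ell2 (0.93). Per2 was most like Lrpprc (0.93), Klf10 (0.91) and Sod2 (0.90), and Per1 like Tmcc1 (0.93), Tmem245 (0.88) and Avl9 (0.87). Clock was most like Enpp3 (0.90), Rapgef6 (0.89) and Ptprk (0.89), Cry2 like Plekha3 (0.90), Plekha8 (0.85) and Btbd1 (0.85), and Per3 like Adra1b (0.87), Dock5 (0.86) and Top2b (0.84). With group means removed, r for Per2 was 0.88 with Lrpprc, 0.62 with Klf10 and 0.50 with Sod2. For Per1 it was 0.70 with Tmcc1, 0.63 with Tmem245 and 0.54 with Avl9. For the remaining clock genes it ranged from 0.74 (Per3 with Top2b) to 0.91 (Cry2 with Btbd1). No clock gene was among another's list, because the 8 were left out of the ranking.

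Pairs of clock genes were also compared with group means removed, so that only variation within groups counted. Of 28 pairs 0 had an adjusted p under 0.05 (permutation test with 100000 resamples, two-sided), and 3 had an unadjusted p below it. The pairs include those with Arntl and Npas2, which have few reads and also enter the adjustment. Arntl with Cry2 was among the 3 (r = 0.64, unadjusted p = 0.0178 by permutation). Its r was 0.32 without the 2 samples farthest from the median of Arntl. The permutation treated the 13 values as free although group means had been removed, so its p-values may be too small. Per1 and Per2 gave the highest value (r = 0.68, p = 0.00524, adjusted p = 0.147 by permutation, Spearman's rho 0.73, p = 0.00656, n = 13). Without the 2 samples farthest from the median of Per1 the value was r = 0.80. Cry1, which has few reads, was at r = 0.31 with Per2 and r = 0.45 with Cry2 (adjusted p = 0.643 and 0.431 by permutation).

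Markers of liver cell types were read beside these results. The 8 hepatocyte markers summed to between 19748 and 30743 CPM over all samples, and the group ranges overlapped, while Hnf4a was lower in LKO averaged over treatments (-0.34, edgeR adjusted p = 0.0475). The 8 endothelial markers summed to 79.4 to 86.0 CPM in WT vehicle, 84.2 to 85.6 in WT tunicamycin, 71.5 to 103 in LKO vehicle and 75.5 to 93.7 in LKO tunicamycin. The 10 Kupffer cell and macrophage markers summed to 57.3 to 70.5, 66.2 to 89.4, 45.5 to 76.0 and 71.3 to 137 CPM in the same order. All 10 averaged estimates were higher after tunicamycin, with 0 called by edgeR. Of them 4 had an unadjusted p under 0.05 (20.2% of all genes had one). The summed markers of stellate cells and fibroblasts were 64.3 to 106 CPM in WT vehicle against 111 to 152 in LKO vehicle, and those of bile duct cells 8.60 to 11.7 against 17.7 to 55.4. After tunicamycin the stellate sums were 89.3 to 126 in WT and 105 to 164 in LKO, and the bile duct sums 8.49 to 42.5 and 36.1 to 111. Averaged over treatments, 3 of 6 tested stellate markers (Col1a1, Col3a1 and Pdgfrb) and 1 of 2 tested bile duct markers (Spp1) were called higher in LKO. Of all genes, 2.21% were called in either direction in that comparison. Sox9, the other bile duct marker tested, was at 0.15 (edgeR adjusted p = 0.809). The 7 lymphocyte and neutrophil markers summed to 3.46 to 12.9 CPM. Averaged over genotypes, 2 of the 3 tested, S100a8 and S100a9, were called higher after tunicamycin (4.32% of all genes were called in either direction). No marker was without a read, and the part of these cells in the clock gene differences was not tested.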

How the data were processed

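RNA from mouse liver was sequenced in 14 libraries. The deposited gene counts are whole numbers of reads in STAR output, as their header lines show, and the sense-strand column was used (99.5 to 99.6% of stranded reads). FPKM values were deposited by the authors in a separate table. The submitters' processing notes name Trimmomatic, STAR, Cufflinks and mm10. Tool versions and the annotation are not given in the sources used here.

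The clock genes and the gene lists were chosen with earlier results of these data known. Counts were fitted with edgeR 4.0.16 in R 4.3.3 (TMM, filterByExpr by group, 1 mean per group over 13 samples, 9 residual degrees of freedom, quasi-likelihood test), with Benjamini-Hochberg adjustment over 9644 genes and calls at 0.05. The 7 contrasts were tunicamycin in each genotype, genotype in each treatment, their interaction, and each effect averaged over the other factor. All 8 clock genes are named. Beside the 10 accessory genes, a further gene chosen for that list is not reported here. From each other list the called genes are named and, where fewer than 4 were called, those with the largest averaged tunicamycin estimate up to 4. The 3 most correlated genes per clock gene had a mean log2 CPM of at least 2. log2 CPM used a prior count of 2. Promoters came from RefSeq. Alternatives covered filters, scaling, tools (DESeq2 1.42.0, limma 3.58.1), strand, the summed libraries, deposited FPKM with 1 added, a block and single omissions.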

Additional observations from a re-analysis of the deposited data

Results flagged for a closer look

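A single value stood far from the others of its group. Npas2 was at 0.133 CPM in LKO tunicamycin 1 and at 0 in the other 3 samples of that group, so the gap equals the whole range. The value is a single read, and any group of 4 with reads in 1 sample only has such a gap.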

How the results depend on the processing

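The number of clock genes called depended on the processing. For tunicamycin averaged over genotypes it was 3, 0 with log2(FPKM + 1) and no filter, and 2 to 4 in the other settings (4 with total count scaling, which added Cry2, and without both doubted samples, which added Clock). Leaving out single samples gave 0 to 4 (0 without WT vehicle 1, 4 without WT tunicamycin 3). For tunicamycin in WT it was 0, and 1 with no filter, 1 with total count scaling, 1 without both doubted samples (chosen after seeing the data) and 0 to 1 under single omissions. For tunicamycin in LKO it was 0, and 1 with no filter. For LKO against WT averaged it was 0, and 1 with no filter and 0 to 1 under single omissions. Among pairs it was 0, and 1 with group means kept (Cry1 and Per2, r = 0.81) and 1 without the 2 farthest samples. Total count scaling moved the median log2 fold change of all genes from 0.01 to -0.11 for tunicamycin averaged over genotypes, from 0.01 to -0.18 in WT, from -0.01 to 0.14 for LKO against WT after tunicamycin and from -0.02 to 0.13 for the interaction. In the averaged contrast, 657 of 810 calls were then lower, against 207 of 417. Per2, Per1 and Cry1 kept their direction in that contrast under all alternatives run. The log2(FPKM) settings with a filter tested no clock gene and were not run. Some estimates changed sign, and the cause was not tested. Not all of them were near 0, as the interactions of Cry1 (-0.23 in the main fit) and Per3 (0.18) show. For Cry2, LKO against WT with vehicle (-0.02) was 0.012 at a mean CPM of at least 5, 0.0097 with 14 libraries and 0.0020 with the replicate block. For Clock, LKO against WT after tunicamycin was -0.069 without both doubted samples, and its interaction -0.00287 with library 4 dropped and -0.25 without both. The Cry1 interaction was 0.027 with log2(FPKM + 1). Under single omissions the ranges were, for Clock, -0.070 to 0.22 after tunicamycin, -0.044 to 0.18 with vehicle and -0.16 to 0.15 for the interaction (-0.017 without LKO vehicle 3+4). They were, for Cry2, -0.046 to 0.14 after tunicamycin, -0.049 to 0.088 averaged (-0.034 without LKO vehicle 3+4), -0.15 to 0.13 with vehicle and -0.079 to 0.20 for the interaction. They were -0.48 to 0.39 for the Cry1 interaction, -0.0072 to 0.089 for Per1 averaged and -0.015 to 0.38 for the Per3 interaction. Same-numbered samples did not deviate together (r from -0.12 to 0.14 in 18 pairs, -0.22 to 0.20 in 45 others). That check showed no pairing by number, but with so few samples in each group it cannot exclude one. The replicate block gave 2 calls, Per1 and Per2, for tunicamycin averaged over genotypes and 0 in the other contrasts. Low counts at the single time sampled limit Arntl and Npas2 most.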
